A study of Mus musculus with 10 samples.

Results

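The genes examined here encode 2 chains of the receptors for interleukin-4 and interleukin-13 (Il4ra and Il13ra1), the transcription factor that these receptors activate (Stat6) and 7 genes known to respond to it (Retnla, Tgm2, Pparg, Ccl17, Ccl22, Alox15 and Socs2). They were chosen by symbol, and all 10 were found among 46957 listed loci, each as the sole symbol of 1 locus. The RNA came from tumour-associated macrophages sorted from BALB/cJ mice with 4T1 tumours, a mouse mammary carcinoma line grown in the mammary fat pad. In the vehicle group, mice received PBS. In the JHU083 group, mice received 1 mg/kg of JHU083, a prodrug of the glutamine antagonist 6-diazo-5-oxo-L-norleucine, on days 7 to 13. Each group had 5 samples. In both, tumours were taken on day 14 and the sort kept live cells with CD45, CD11b and F4/80 on their surface and without Ly6G, Ly6C and CD8. The labels do not say that each sample came from a separate mouse, so the p-values measure the spread between these samples, which may be technical.

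Interleukin-4 binds Il4ra, which pairs with the common gamma chain Il2rg in the type I receptor or with Il13ra1 in the type II receptor, and interleukin-13 acts through the type II receptor. The attached kinases JAK1, JAK3 and TYK2 phosphorylate STAT6, which then enters the nucleus and binds the genes of the alternative macrophage activation programme. Retnla, Alox15, Ccl17 and Ccl22 are classical read-outs of this programme in mouse macrophages, Pparg is a lipid-sensing nuclear receptor that works with STAT6, and Socs2 belongs to a family of feedback inhibitors.

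STAT6 recognises a palindrome with a spacer of 4 bases, TTCNNNNGAA. The 300 bases around the RefSeq start site of a gene (250 before it and 50 after, GRCm38.p6) were searched for it and for 2 further motifs. These were TTCNNNGAA, a palindrome shared by other STAT factors, and AGGTCANAGGTCA, the direct repeat bound by PPAR and RXR, each on both strands. Promoters of 7 of the 10 genes were matched by symbol, and those of Tgm2, Alox15 and Socs2 were not. The 7 matched genes lie on the plus strand and the unmatched ones on the minus strand. The promoters of Retnla and Ccl17 are shown because they held the STAT6-type palindrome and because both transcripts were higher after JHU083. Capitals mark the motif matches, and the sequences are on the plus strand, 5′ to 3′.
Retnla, chr16:48842359-48842658: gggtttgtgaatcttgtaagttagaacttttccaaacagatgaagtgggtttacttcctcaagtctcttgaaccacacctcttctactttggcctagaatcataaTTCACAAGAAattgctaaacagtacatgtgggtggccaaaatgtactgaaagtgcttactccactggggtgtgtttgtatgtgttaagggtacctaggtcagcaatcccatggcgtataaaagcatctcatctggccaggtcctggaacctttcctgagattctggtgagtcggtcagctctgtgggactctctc
Ccl17, chr8:94810203-94810502: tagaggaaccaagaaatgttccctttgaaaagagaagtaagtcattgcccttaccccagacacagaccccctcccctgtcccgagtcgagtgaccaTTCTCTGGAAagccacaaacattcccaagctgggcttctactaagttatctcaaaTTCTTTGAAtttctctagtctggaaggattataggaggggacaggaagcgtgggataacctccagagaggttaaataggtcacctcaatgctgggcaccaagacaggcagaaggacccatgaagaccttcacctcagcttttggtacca
In the Retnla promoter the match TTCACAAGAA lay 145 to 136 bases before the start site. In the Ccl17 promoter TTCTCTGGAA lay 154 to 145 bases before it, and a separate match to the shorter palindrome, TTCTTTGAA, lay 99 to 91 bases before it. The 9 promoters of the 7 matched genes held no other match to any of the 3 motifs. Among all 32851 promoters of this length, 6.95% held TTCNNNNGAA, 8.3% held TTCNNNGAA and 0.0396% held AGGTCANAGGTCA. These are matches of letters and not measured binding sites.

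The libraries held 11147870 to 14575932 fragments in vehicle and 13638381 to 15740701 in JHU083, and 3 fragments correspond to 0.196 to 0.261 CPM on the normalised scale used below. The locus Rn18s-rs5 held 2.38% to 4.64% of the fragments of 5 samples, and a value of 0 was listed for it in the other 5 (3 vehicle, 2 JHU083).

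Of the 10 genes, 4 rose after JHU083, 0 fell and 6 did not pass the test. The 4 that rose were Retnla, Alox15, Ccl17 and Ccl22, and the receptor chains, Stat6, Tgm2, Pparg and Socs2 were the 6 that did not pass. In edgeR's quasi-likelihood test 18.4% of the 12500 tested loci were higher and 18.3% lower at an adjusted p under 0.05, so that 36.7% were called in either direction. With scaling to library size only, 1564 loci were higher and 3141 lower, against 2296 and 2293 here, and the same numbers of the 10 genes passed. The 4 of 10 genes called are close to the share among all loci. On the log2 scale, the changes ran from 2.90 ± 0.28 (SE) for Retnla to -0.13 ± 0.11 (SE) for Tgm2. The median over the 10 genes was 0.32, beside 0.01 over all tested loci. No gene of the 10 was lower at an unadjusted p under 0.05 either, and DESeq2 and limma-voom each called the same numbers, 4 higher and 0 lower. All adjusted p-values below come from the edgeR test unless another is named. CPM are fragment counts scaled to the normalised library size, and ± is the SD over the 5 samples of a group unless marked SE.

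**Figure D1:**
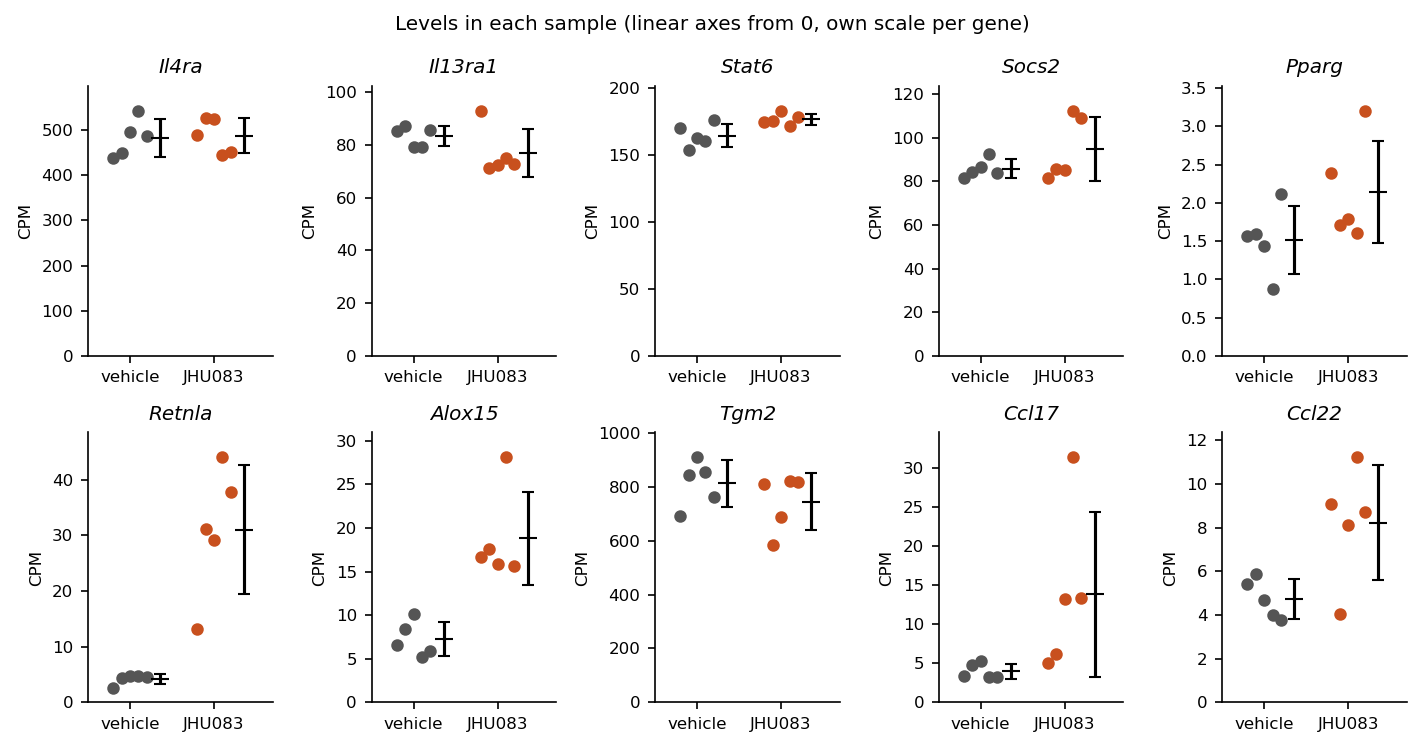
Levels of the 10 genes in CPM (linear axis from 0, own scale for each gene) in each of the 5 vehicle samples (grey) and 5 JHU083 samples (orange), in order of replicate number, with the group mean and SD in black. Every JHU083 sample lies above every vehicle sample for Retnla and Alox15, and the groups overlap for the other 8 genes. Groups did not overlap for 22.3% of all tested loci.

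The receptor chains and Stat6 were examined first. Il4ra (chromosome 7, 125552120 to 125579474, plus strand, GENCODE M21 on GRCm38, as for all positions below), the chain that binds interleukin-4, was at 438, 449, 496, 543 and 487 CPM in vehicle replicates 1 to 5 and at 489, 527, 525, 445 and 452 CPM in JHU083 replicates 1 to 5. The highest and the lowest value were both vehicle samples, and all JHU083 values lay between them. The log2 fold change was 0.01 ± 0.08 (SE, adjusted p = 0.904), with a 95% interval of -0.15 to 0.18. Its sign was not stable, and it was -0.07 with scaling to library size only.

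Il13ra1 (chromosome X, 36112110 to 36171259, plus strand), the partner chain in the type II receptor, was at 85.4, 87.2, 79.4, 79.1 and 85.7 CPM in vehicle and at 93.1, 71.4, 72.4, 75.0 and 72.8 CPM in JHU083. In JHU083, 4 of 5 samples lay below every vehicle sample, while replicate 1 lay above every vehicle sample. The log2 fold change was -0.12 ± 0.08 (SE, adjusted p = 0.293), with a 95% interval of -0.29 to 0.06. Without JHU083 replicate 1 it was -0.19 and passed the test (adjusted p = 0.046), so that the result for this chain rests on 1 library. The log2 ratio of Il4ra to Il13ra1 fragments within a sample was 2.53 ± 0.18 in vehicle and 2.66 ± 0.21 in JHU083 (n = 5 each). The difference of 0.14 did not pass the exact two-sided permutation test (p = 0.278, also 0.278 after adjustment over the 2 ratios tested here).

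Stat6 (chromosome 10, 127642986 to 127660957, plus strand) was at 170, 154, 163, 161 and 176 CPM in vehicle and at 175, 175, 183, 172 and 178 CPM in JHU083. JHU083 replicates 3 and 5 lay above every vehicle sample and the other 3 within the vehicle range. The log2 fold change was 0.10 ± 0.06 (SE, adjusted p = 0.209), and its 95% interval ended at 0.23, a fold of 1.18. On the deposited FPKM scale the groups did not overlap, with 45.0 to 47.6 FPKM in vehicle and 49.6 to 56.4 FPKM in JHU083, and the log2 difference with 0.1 added was 0.16 (limma, adjusted p = 0.0698), which did not pass either.

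**Figure D2:**
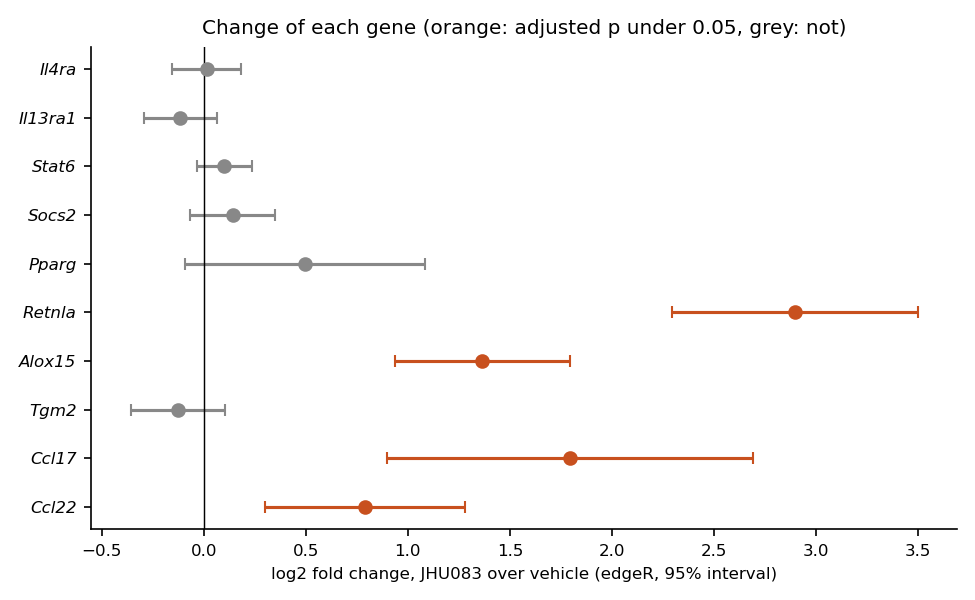
Log2 fold change of each of the 10 genes, JHU083 over vehicle, with its 95% interval from edgeR (5 samples per group). Orange marks an adjusted p under 0.05 and grey the rest, and the 4 orange genes run from 0.79 (Ccl22) to 2.90 (Retnla).

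Among the other receptor chains and kinases, 7 of 8 genes were tested. Of these, 2 rose and 2 fell, beside 18.4% and 18.3% of all tested loci. Il2rg, the common gamma chain, fell from 103 ± 6.65 to 70.3 ± 11.7 CPM (n = 5), or -0.55 ± 0.10 (SE) on the log2 scale (adjusted p = 0.00104). Its partner kinase gene Jak3 fell from 157 ± 12.3 to 104 ± 17.0 CPM, or -0.59 ± 0.10 (SE) on the log2 scale (adjusted p = 0.000581). The groups did not overlap for either gene, as for 11.1% of all tested loci in this direction. Both loci list further symbols (Gm20489 and Gm614 with Il2rg, and Insl3 with Jak3), whose fragments are included. Jak1, the kinase on Il4ra, rose by 0.40 ± 0.08 (log2, SE, adjusted p = 0.00133) and Irs2, an adaptor recruited by the receptor, by 0.61 ± 0.16 (adjusted p = 0.0107). The decoy receptor gene Il13ra2 had at most 1 fragment in any sample.

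The cytokines themselves were scarce in these libraries. Il4 had 0 to 7 fragments per sample. Il13 had 2 to 26 fragments in vehicle and 2 to 20 in JHU083, with a log2 fold change of -0.11 (adjusted p = 0.896). Of the epithelial cytokines that elicit type 2 responses, Tslp fell from 1.93 ± 0.87 to 0.64 ± 0.27 CPM (n = 5, log2 fold change -1.58, adjusted p = 0.00615), Il33 did not pass the test (-0.31, adjusted p = 0.588) and Il25 had no fragment. Beside Tslp, all 6 tumour epithelial marker genes also fell, from a summed level of 188 to 493 CPM in vehicle samples to 59.6 to 127 CPM in JHU083 samples. Their part in the result was not tested. In bulk RNA, fewer cells of a type and less RNA per cell cannot be told apart.

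Retnla, which encodes the secreted resistin-like molecule alpha, showed the largest change of the 10 genes. It was at 2.51, 4.42, 4.68, 4.78 and 4.54 CPM in vehicle replicates 1 to 5 and at 13.1, 31.2, 29.1, 44.0 and 37.7 CPM in JHU083 replicates 1 to 5. All JHU083 samples lay above all vehicle samples, a separation found in either direction for 22.3% of tested loci and in this direction for 11.2%. Replicate 1 was the lowest of the JHU083 samples. The level rose 7.44-fold (95% interval 4.90 to 11.3), or 2.90 ± 0.28 (SE) on the log2 scale (adjusted p = 7.52e-06). Including Retnla, 9 of the 12500 tested loci had a log2 fold change at least as large. These levels rest on 37 to 62 fragments per vehicle sample and 192 to 576 per JHU083 sample. Retnla (chromosome 16, 48842551 to 48844461, plus strand) belongs to a family of similar genes. Its relatives Retnlb and Retn had 0 and at most 3 fragments in any sample, and Retnlg, a neutrophil transcript, did not pass the test (14.2 ± 7.94 against 19.4 ± 18.1 CPM, n = 5, adjusted p = 0.49).

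Alox15 encodes the 12/15-lipoxygenase, which oxygenates arachidonic acid and related fatty acids. Its values were 6.59, 8.46, 10.1, 5.21 and 5.95 CPM in vehicle and 16.7, 17.6, 15.9, 28.1 and 15.7 CPM in JHU083. The groups did not overlap, as for 11.2% of all tested loci in this direction. JHU083 replicate 4 stood above the rest of its group. The level rose 2.58-fold (95% interval 1.91 to 3.47), or 1.37 ± 0.20 (SE) on the log2 scale (adjusted p = 0.000173). Of its relatives, Alox5, the 5-lipoxygenase of leukotriene synthesis, rose by 1.03 ± 0.14 (log2, SE, adjusted p = 9.17e-05), and Alox5ap, its activating protein, fell by 0.33 on the log2 scale (adjusted p = 0.0133). Alox12 and Alox8 had at most 7 and 2 fragments in any sample. Alox15 lies on chromosome 11 (70344152 to 70352031, minus strand).

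Tgm2 (chromosome 2, 158116402 to 158146436, minus strand), which encodes the protein-crosslinking tissue transglutaminase, was at 691, 843, 910, 855 and 760 CPM in vehicle and at 810, 582, 687, 819 and 818 CPM in JHU083. JHU083 replicates 2 and 3 lay below every vehicle sample and the other 3 within the vehicle range. The log2 fold change was -0.13 ± 0.11 (SE, adjusted p = 0.375), with a 95% interval of -0.36 to 0.10. The upper end of that interval is a fold of 1.07, below the lower ends for Retnla, Alox15, Ccl17 and Ccl22.

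Ccl17 and Ccl22 encode chemokines that share the receptor CCR4, found on regulatory and type 2 helper T cells. The genes lie 58753 bases apart on the plus strand of chromosome 8 (Ccl22 at 94745590 to 94751699 and Ccl17 at 94810453 to 94812036). Ccl17 was at 3.33, 4.72, 5.28, 3.22 and 3.21 CPM in vehicle and at 4.98, 6.17, 13.2, 31.3 and 13.4 CPM in JHU083. JHU083 replicate 1 lay within the vehicle range, replicate 2 just above it, and replicate 4 was the highest of all samples. The level rose 3.47-fold (95% interval 1.87 to 6.45), or 1.79 ± 0.42 (SE) on the log2 scale (adjusted p = 0.00436). Without JHU083 replicate 4 the log2 fold change was 1.25 and still passed (adjusted p = 0.00716).

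Ccl22 was at 5.43, 5.87, 4.68, 4.00 and 3.76 CPM in vehicle and at 9.07, 4.04, 8.13, 11.2 and 8.71 CPM in JHU083. JHU083 replicate 2 lay within the vehicle range and the other 4 above it. The level rose 1.73-fold (95% interval 1.23 to 2.42), or 0.79 ± 0.23 (SE) on the log2 scale (adjusted p = 0.0152). The log2 ratio of Ccl17 to Ccl22 fragments within a sample was -0.27 ± 0.30 in vehicle and 0.50 ± 0.84 in JHU083 (n = 5 each). The difference of 0.77 did not pass the exact two-sided permutation test (p = 0.119, 0.238 after adjustment over the 2 ratios). JHU083 replicate 1 had the lowest ratio of all 10 samples, at -0.85, and without it the difference was 1.11 and passed (exact permutation, adjusted p = 0.0159). The remaining JHU083 ratios then all lay above the vehicle ratios, so that p before adjustment was the smallest this test can give. The gene of their receptor, Ccr4, had at most 7 fragments in any sample.

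Rn18s-rs5 was at 0 in vehicle replicates 2, 4 and 5 and in JHU083 replicates 1 and 3. Among these samples, the log2 fold changes were 2.20 for Retnla, 1.31 for Alox15, 1.28 for Ccl17 and 0.92 for Ccl22. Among the others they were 3.39, 1.28, 1.97 and 0.65. Retnla and Alox15 passed the edgeR test in both sets of samples, Ccl17 in the others only (adjusted p = 0.0765 at 0 and 0.0251 in the others) and Ccl22 in neither (adjusted p = 0.0563 and 0.211). JHU083 replicate 1, the lowest of its group for Retnla and Ccl17, lay in the first set. Vehicle replicate 1, the lowest of its group for Retnla, lay in the second. The difference between the sets was not tested.

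Dendritic cells also make both chemokines. The summed level of 9 dendritic cell marker genes was 36.5 to 66.2 CPM in vehicle and 28.8 to 49.4 CPM in JHU083. Of the 8 that were tested, Cd209a rose (from 1.69 ± 0.43 to 7.24 ± 3.50 CPM, n = 5, adjusted p = 0.000363), Fscn1 fell (from 28.5 ± 10.2 to 10.7 ± 2.03 CPM, adjusted p = 0.00022) and 6 did not pass, among them Flt3 (1.12 ± 0.14 and 1.16 ± 0.48 CPM) and Ccr7 (3.71 ± 1.05 and 5.12 ± 2.54 CPM). JHU083 replicate 4, the highest sample for Ccl17, Ccl22, Alox15 and Retnla, also had the highest dendritic cell, eosinophil, neutrophil, mast cell and basophil, and tumour epithelium sums of its group and the lowest macrophage sum (23888 CPM). The part of these cells in the results was not tested.

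Pparg and Socs2 are regulators as well as targets of the pathway. Pparg (chromosome 6, 115360951 to 115490399, plus strand) was at 1.56, 1.60, 1.43, 0.87 and 2.11 CPM in vehicle and at 2.39, 1.71, 1.79, 1.61 and 3.21 CPM in JHU083, with overlapping groups. It rested on 10 to 27 fragments per vehicle sample and 21 to 49 per JHU083 sample. The log2 fold change was 0.50 ± 0.28 (SE, adjusted p = 0.172), and the 95% interval of -0.09 to 1.09 reaches a fold of 2.12. On the deposited FPKM scale the log2 difference was 0.05 with 0.1 added and 0.01 with 1 added (limma, adjusted p = 0.912 and 0.977), and vehicle replicate 5 alone had 2.39 FPKM, above every other sample of either group.

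Socs2 (chromosome 10, 95385362 to 95417180, minus strand) was at 81.7, 84.4, 86.7, 92.6 and 84.0 CPM in vehicle and at 81.4, 85.5, 85.4, 112 and 109 CPM in JHU083. Replicates 4 and 5 of JHU083 lay above every vehicle sample, replicates 2 and 3 within the vehicle range and replicate 1 just below it. The log2 fold change was 0.14 ± 0.10 (SE, adjusted p = 0.266), with a 95% interval of -0.07 to 0.35.

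Levels of different genes were compared on the deposited FPKM scale, which corrects for transcript length. In vehicle the order of the medians was Tgm2 (230 FPKM), Il4ra (149), Stat6 (46.9), Socs2 (46.6), Il13ra1 (22.3), Retnla (10.9), Ccl17 (10.3), Alox15 (2.74), Ccl22 (2.15) and Pparg (0.85). Stat6 exceeded Socs2 in 2 of 5 vehicle samples and Retnla exceeded Ccl17 in 2 of 5, so that these neighbours did not differ beyond their spread. In JHU083, Retnla (75.9 FPKM) stood below Il4ra (152) in 5 of 5 samples and above Socs2 (58.7) in 4 of 5. Stat6 (51.2) exceeded Ccl17 (39.8) in 4 of 5, and Ccl17 lay above Il13ra1 (19.1) in 4 of 5 JHU083 samples and in 0 of 5 vehicle samples. Alox15 (7.05 FPKM), Ccl22 (4.01) and Pparg (0.89) kept the last places. The spread between samples also differed between genes, with a coefficient of variation of CPM in JHU083 of 2.47% for Stat6, 7.99% for Il4ra, 37.4% for Retnla and 76.3% for Ccl17.

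A further 95 genes of the pathway, its partners and relatives of the 10 genes, in 8 lists, mapped to 94 loci. Of these loci, 81 were tested. Of the 81, 27 rose, 15 fell and 39 did not pass, or 51.9% called, beside 36.7% of all tested loci. The median log2 fold change was 0.10. No test of the lists against other genes was made. The lists were chosen with earlier results of these data known, so the higher share cannot be read as a result about the pathway.

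**Figure D3:**
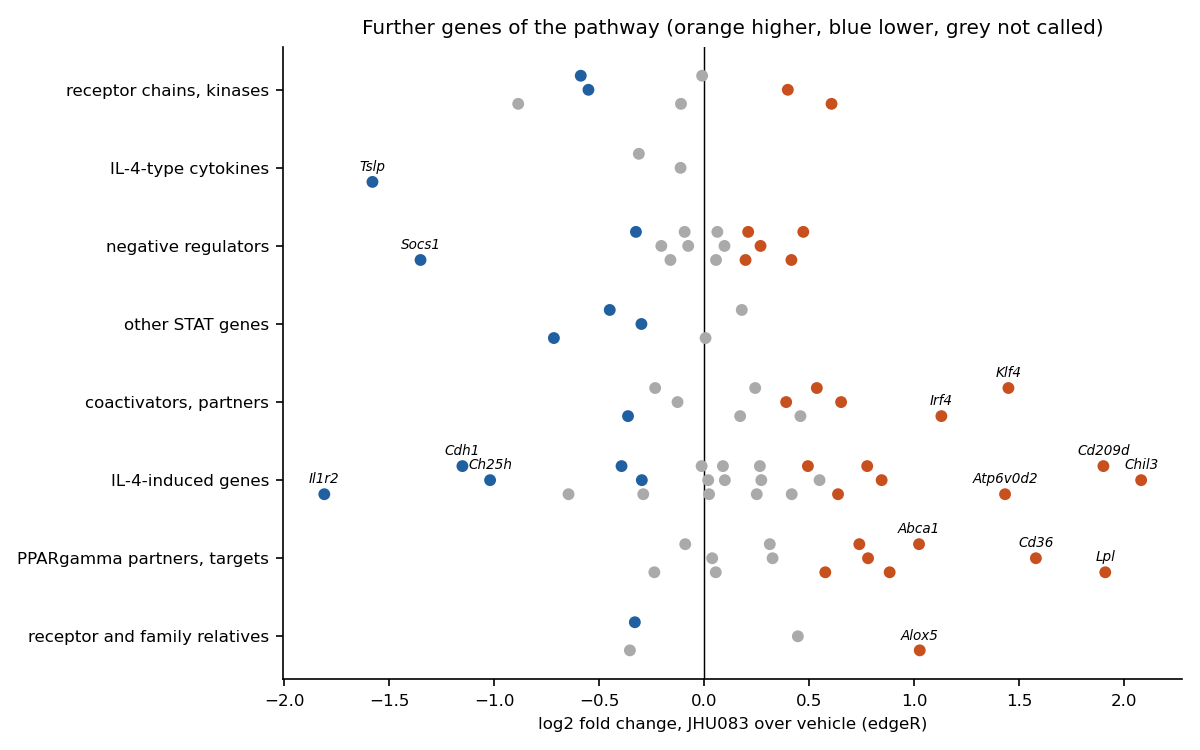
Log2 fold change (JHU083 over vehicle, edgeR) of the 81 tested loci of the further pathway lists, 1 point per locus, orange for higher, blue for lower and grey for not called at an adjusted p of 0.05. Genes with a change of at least 1 on the log2 scale are named, and the PPARgamma list has 7 orange points and 0 blue ones. Of all tested loci, 18.4% were higher and 18.3% lower.

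Among partner factors and coactivators of STAT6, 5 of 11 rose and 1 fell, beside 18.4% and 18.3% of all tested loci. Klf4, a transcription factor that cooperates with STAT6 in alternative activation, rose from 88.2 ± 24.2 to 241 ± 49.98 CPM (n = 5, log2 fold change 1.45 ± 0.18 SE, adjusted p = 4.73e-05). Irf4, which drives a subset of interleukin-4 target genes, rose from 8.91 ± 2.52 to 19.5 ± 6.01 CPM (log2 fold change 1.13 ± 0.22 SE, adjusted p = 0.00123). Egr2, an interleukin-4-induced factor, rose by 0.65 ± 0.09 (log2, SE, adjusted p = 0.000112). The groups did not overlap for these 3 genes, as for 11.2% of all tested loci in this direction. Snd1, a STAT6 coactivator, fell by 0.36 on the log2 scale (adjusted p = 0.00472).

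Of 24 tested genes in a list of other interleukin-4-induced macrophage genes, 7 rose, 5 fell and 12 did not pass. Shares of all tested loci were 18.4% higher and 18.3% lower. Whether interleukin-4 induces each listed gene was not tested. Chil3, a chitinase-like secreted protein, rose from 4.94 ± 2.55 to 20.8 ± 12.9 CPM (n = 5, log2 fold change 2.08 ± 0.47 SE, adjusted p = 0.00374). The lectin gene Cd209d, which belongs to a family of similar genes, rose by 1.90 ± 0.39 (adjusted p = 0.00196) and Atp6v0d2, a subunit of the lysosomal proton pump, by 1.43 ± 0.25 (adjusted p = 0.000585), both log2 with SE. In the opposite direction, Il1r2, the decoy receptor for interleukin-1, fell from 93.4 ± 10.3 to 26.7 ± 8.60 CPM (log2 fold change -1.81 ± 0.19 SE, adjusted p = 1.49e-05). Ch25h, which makes 25-hydroxycholesterol, fell by 1.02 on the log2 scale (adjusted p = 4.7e-05). Cdh1, which encodes E-cadherin, fell from 96.8 ± 9.97 to 43.6 ± 19.3 CPM (adjusted p = 0.00222). Carcinoma cells also express it, the epithelial sums given above were lower too, and their part in the result was not tested. The median of this list was 0.17 on the log2 scale.

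PPARgamma partners and targets had a median log2 fold change of 0.58, with 7 of 13 tested genes higher and 0 lower. Of all tested loci, 18.4% were higher and 18.3% lower. At an unadjusted p under 0.05, 1 gene of this list was lower, and DESeq2 and limma-voom called 0 lower. Lpl, lipoprotein lipase, rose from 4.70 ± 1.19 to 17.8 ± 4.45 CPM (n = 5, log2 fold change 1.91 ± 0.21 SE, adjusted p = 1.66e-05). Cd36, a fatty acid and oxidised lipoprotein receptor, rose from 6.26 ± 0.83 to 18.8 ± 9.03 CPM (log2 fold change 1.58 ± 0.28 SE, adjusted p = 0.000635). Abca1, a cholesterol exporter that liver X receptors also control, rose by 1.02 ± 0.16 (log2, SE, adjusted p = 0.000332).

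Negative regulators of cytokine signalling moved both ways, with 5 of 14 higher and 2 lower (1 lower in limma-voom). Shares of all tested loci were 18.4% and 18.3%. Socs1, an inhibitor of JAK kinases, fell from 18.3 ± 2.31 to 7.17 ± 1.91 CPM (n = 5, log2 fold change -1.35 ± 0.17 SE, adjusted p = 5.17e-05). Its groups did not overlap, as for 11.1% of all tested loci in this direction. Ptpn6, a phosphatase of the pathway, fell by 0.33 on the log2 scale (adjusted p = 0.0454). Socs4, Socs6 and Pias1 rose by 0.47, 0.41 and 0.27 (log2, adjusted p = 0.00308, 0.00872 and 0.0207).

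Among the other STAT genes, Stat2, which acts in interferon signalling, fell from 79.6 ± 7.16 to 58.2 ± 6.10 CPM (n = 5, log2 fold change -0.45 ± 0.09 SE, adjusted p = 0.00155). Stat5a, which acts downstream of growth factor and cytokine receptors, fell by 0.30 on the log2 scale (adjusted p = 0.0348). The groups did not overlap for Stat2 and Stat5a, as for 11.1% of all tested loci in this direction. Stat3 (0.18, adjusted p = 0.0638) and Stat5b (0.01, adjusted p = 0.953) did not pass the test.

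The sorted cells carried the markers of macrophages, and no list of another cell type summed to more than 493 CPM in any sample. The 10 macrophage markers summed to 18992 to 24177 CPM in vehicle and 23888 to 31853 CPM in JHU083, and 4 of them rose (Csf1r, Adgre1, Mertk and Lyz2). Eosinophils express Alox15 and type 2 genes, and their 6 markers summed to 3.76 to 10.6 CPM in vehicle and 6.71 to 17.4 CPM in JHU083. Siglecf rose among them (from 3.19 ± 0.80 to 5.91 ± 2.0 CPM, n = 5, adjusted p = 0.0115), while Prg2 (1.27 ± 0.58 and 2.27 ± 1.79 CPM, adjusted p = 0.196) and Ccr3 (1.72 ± 1.09 and 2.12 ± 1.44 CPM, adjusted p = 0.659) did not pass. Epx, Ear1 and Il5ra had at most 5, 1 and 9 fragments in any sample. The part of eosinophils in the results was not tested. Resident peritoneal macrophages are rich in Alox15, and their 5 markers summed to 9.04 to 18.3 CPM in vehicle and 6.93 to 13.8 CPM in JHU083. Of these, Lyve1 (8.68 ± 3.84 and 7.79 ± 3.25 CPM) and Timd4 (3.47 ± 0.85 and 2.70 ± 1.04 CPM) did not pass, and Gata6, Selp and Prg4 had at most 1, 14 and 18 fragments in any sample. The T cell list was higher in every JHU083 sample (27.7 to 44.7 against 15.01 to 18.6 CPM), through Cd4 (14.7 ± 1.37 to 31.8 ± 5.98 CPM), while Cd3e, Cd3d and Cd3g had at most 10, 8 and 15 fragments in any sample.

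**Figure D4:**
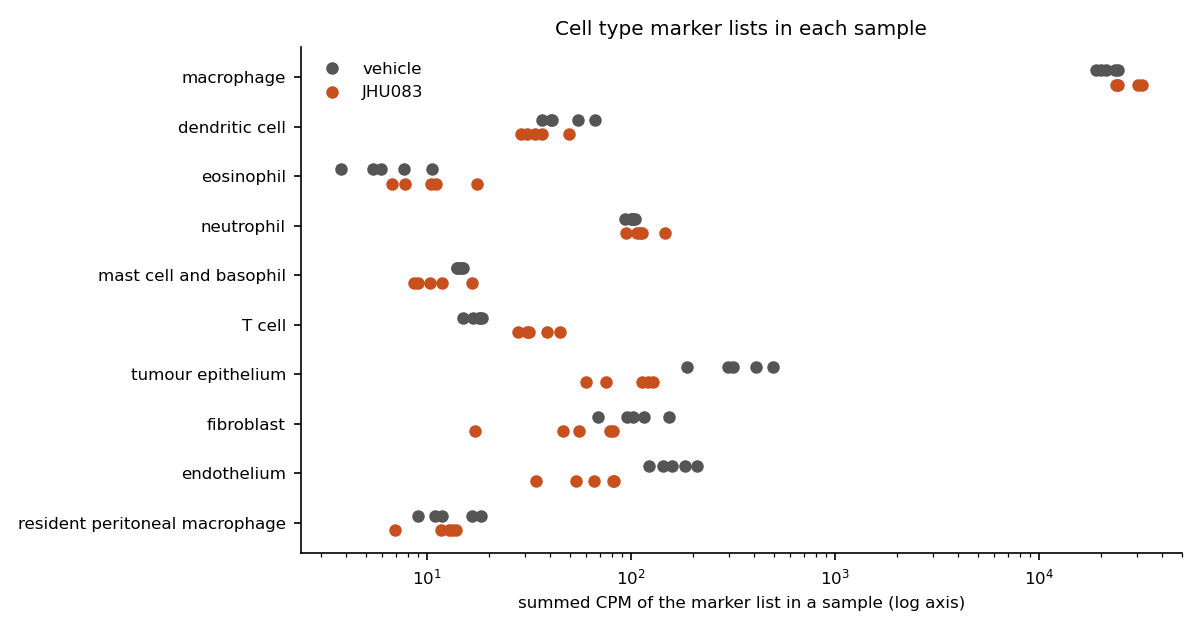
Summed CPM of 10 fixed lists of cell type markers (log axis) in each of the 5 vehicle samples (grey) and 5 JHU083 samples (orange), 1 point per sample. Macrophage markers exceed every other list by more than an order of magnitude, and the tumour epithelium and endothelium lists are lower in every JHU083 sample, the latter through Pecam1, while Cdh5 and Kdr did not pass the test.

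To see which transcripts followed the 4 genes that rose from sample to sample, log2 CPM minus its group mean was correlated over the 10 samples with that of 10340 loci. As a description, the closest transcript to Retnla was Tfec (r = 0.98), a transcription factor of the list of interleukin-4-induced genes. Ogdhl (r = 0.94) and Pdcd1lg2 (r = 0.94), which encodes PD-L2 and belongs to the same list, came next. Tfec was lowest in vehicle replicate 1 (52.0 CPM) within its group and in JHU083 replicate 1 (54.2 CPM) within its group, as Retnla was. Neither Tfec (log2 fold change 0.25, adjusted p = 0.071) nor Pdcd1lg2 (-0.29, adjusted p = 0.376) passed the test between groups. For Ccl17 the closest were Car2 (r = 0.95), the lectin gene Mgl2 (r = 0.94) and Car4 (r = 0.94), and Mgl2, also in that list, fell by 0.39 on the log2 scale (adjusted p = 0.0457). For Ccl22 they were Glo1, Gm12696 and Cenpv (r = 0.96, 0.96 and 0.95), and for Alox15 they were Csnk1a1, Lss and Retnlg (r = 0.89, 0.89 and 0.88). These are the highest r of all loci compared, and the values of a sample share its library. Among the 4 genes the same r was 0.70 for Retnla and Ccl17, 0.66 for Alox15 and Ccl17, 0.58 for Ccl17 and Ccl22, 0.42 for Alox15 and Ccl22, 0.31 for Retnla and Alox15 and -0.09 for Retnla and Ccl22 (10 samples).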

How the data were processed

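Polyadenylated RNA of 10 samples was sequenced, per the labels' protocols, from a library kit that does not mark strand, so antisense fragments cannot be told apart. Per the submitters' processing notes, TopHat2 2.1.1 and the build GRCm38 were used. The counting program and annotation are not given in the sources used here. The authors deposited expected counts (headed as raw counts, but not whole numbers) and FPKM (inferred from the values, headed as normalized). From 99.9% to 100.0% of positive expected counts were whole multiples of a step of 0.888 to 1.17 per sample (tolerance 0.02); dividing by it and rounding gave the fragment counts. A row that names no gene, with at most 0.0021% of fragments, was left out. Fragments were tested with edgeR 4.0.16 (filterByExpr, TMM, quasi-likelihood, no covariate, R 4.3.3), adjusted over all tested loci by Benjamini-Hochberg at 0.05, and the fits were tested on simulated data. Log2 CPM and ratios used a prior count of 2. Exact permutation tests on all 10 samples used all 252 splits, whose smallest p is 0.0079. Alternatives used DESeq2 1.42.0 and limma 3.58.1. Genes named from the further lists are up to 3 per direction with the largest change at an adjusted p under 0.05, plus genes a result turns on; for Retnla, Ccl17, Ccl22 and Alox15 the 3 most similar single-symbol loci with an average log2 CPM of at least 1 are named. The genes and lists were chosen with earlier results of these data known. Positions are from GENCODE M21 by symbol and promoters from RefSeq. The values of some genes of these lists are not reported here.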

Additional observations from a re-analysis of the deposited data

Results flagged for a closer look

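Of 24 groups of 5 values examined (10 genes and 2 ratios in 2 groups), 3 had a sample far from the others by Dixon's criterion, where chance gives about 1.2. Il13ra1 in JHU083 replicate 1 was at 6.54 log2 CPM, above the other JHU083 samples at 6.16 to 6.23. Retnla in vehicle replicate 1 was at 1.41 log2 CPM, below the other vehicle samples at 2.19 to 2.30. Alox15 in JHU083 replicate 4 was at 4.82 log2 CPM, above the other JHU083 samples at 3.98 to 4.15.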

How the results depend on the processing

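Each of the 10 genes was recomputed under 24 alternatives. Retnla (2.20 to 3.39 on the log2 scale) and Alox15 (1.12 to 1.51) passed the test in all 24, and Stat6, Tgm2 and Pparg kept their sign and did not pass in any of the 24. Il4ra turned to -0.066 with scaling to library size only. When 1 sample was left out, Il4ra ranged from -0.019 to 0.055, Il13ra1 from -0.19 to -0.089, Tgm2 from -0.18 to -0.050, Socs2 from 0.074 to 0.19 and Pparg from 0.30 to 0.64. The difference in the ratio of Ccl17 to Ccl22 then ranged from 0.53 to 1.11 and that of Il4ra to Il13ra1 from 0.082 to 0.205. Without JHU083 replicate 1, Il13ra1 and the Ccl17 to Ccl22 ratio passed the test, so that the number of the 10 genes that were lower ranged from 0 to 1. Among the samples with Rn18s-rs5 at 0, Ccl17 (1.28) and Ccl22 (0.92) did not pass, Socs2 turned to -0.058, and 2 of the 10 genes, 13 further pathway loci and 532 of all loci were higher, with 8 further pathway loci and 586 of all loci lower. Among the other samples, Ccl22 (0.65) did not pass, 8 further pathway loci were lower and 1276 of all loci were higher. These sets hold 5 samples each, so fewer samples enter the fit. With status at that locus as a covariate, an alternative chosen after seeing the data, 4 of the 10 genes were higher.

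Replicate numbers 1 to 5 recur in the labels of both groups. The deviations of same-numbered samples had correlations of -0.559 to -0.14, and 0 of 5 samples in either group correlated best with their own number. Same-numbered samples always differed in whether Rn18s-rs5 was at 0, so these correlations cannot decide whether the numbers mark pairs. The main test did not use the numbers as pairs. With a replicate block, Ccl22 (0.75, adjusted p = 0.0548 in edgeR) did not pass, and the 1612 loci higher and 1757 lower compare with 2296 and 2293. Pparg rested on 10 to 49 fragments per sample and Il4 on at most 7.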

Other observations

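Mrc1, Clec7a and Cd163, further genes of alternative activation chosen after their values were seen, were abundant in both groups. Each group had n = 5, with edgeR's test as above. Of the 24 tested genes in the interleukin-4-induced list that holds them, 7 rose, 5 fell and 12 did not pass. Mrc1, the mannose receptor, rose from 1428 ± 442 to 2446 ± 506 CPM (log2 fold change 0.78 ± 0.20 SE, adjusted p = 0.00754). Clec7a, the beta-glucan receptor, rose from 454 ± 34.4 to 816 ± 132 CPM (0.84 ± 0.11 SE, adjusted p = 4.81e-05). Its groups did not overlap, as for 11.2% of all tested loci in this direction. Cd163, a haemoglobin scavenger receptor, varied widely within groups (224 ± 117 and 298 ± 146 CPM) and did not pass (adjusted p = 0.417).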
